A study of Mus musculus with 18 samples.

Results

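The genotype effect of p110g-/- was set between 2 opposing stimuli of mouse bone marrow derived macrophages: the genotype effect in IFNg/LPS (p110g-/- minus WT) minus the genotype effect in IL-4 (p110g-/- minus WT). Whether a genotype effect comes from the loss of p110g itself or from another difference between the mice was not tested. The comparison used 12 of the 18 RNA sequencing libraries of the study, and 15376 of the 16474 genes in the table, those with a normalised signal of at least 10 in 3 or more of the 12 libraries. The groups were p110g-/- in IFNg/LPS, WT in IFNg/LPS, p110g-/- in IL-4 and WT in IL-4, with 3 libraries each. All mice were C57BL/6 and 8 weeks old, and the labels name the p110g-/- genotype with no Cre, promoter or cell type. Every group began as marrow cells given 50 ng/ml M-CSF over 6 days. All groups then stayed in M-CSF at 20 ng/ml, to which IFNg and LPS (100 ng/ml) were added over 24 h, or IL-4 (20 ng/ml) over 48 h. Stimulus and time therefore cannot be told apart in this comparison. Separate animals or cultures behind the replicates are not named in the labels, and p-values therefore measure a spread between libraries that may be technical. In bulk RNA, fewer cells that express a gene and less RNA per cell cannot be told apart.

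p110g, encoded by Pik3cg, is the catalytic subunit of the class IB phosphoinositide 3-kinase, which leukocytes use downstream of G protein-coupled receptors to make the lipid that recruits Akt to the membrane. IFNg with LPS drives macrophages through interferon regulatory factors and NF-kB to an inflammatory state. IL-4 acts through STAT6 and drives alternative activation, with arginase, the mannose receptor and lipid handling genes as its hallmarks.

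Recovered reads were 40.6 to 69.6 M (1e6) per library, and 128 to 307 genes per library were at 0. A count of 3 reads, the limit that a count of 0 allows, corresponded to a signal of 2.152 to 4.738. In all 4 groups number 1 was the library farthest from the other 2. The mean squared difference per counting variance was 64.4 to 138.7 for pairs with number 1 and 15.8 to 44.5 for the other pairs. Pik3cg itself stood at 956, 1083 and 965 in p110g-/- and 3068, 2953 and 3281 in WT libraries in IL-4, where it fell by 1.63 on the log2 scale (SE 0.27, adjusted p 0.0081). In IFNg/LPS it stood at 3691, 1411 and 2037 in p110g-/- and 3559.5, 2309 and 2604 in WT libraries, with a log2 difference of -0.34 (SE 0.27, adjusted p 0.47). At 3691, the first of these p110g-/- libraries (the library labelled p110g-/- IFNg/LPS number 1) thus went against its label. In that library 2 genes chosen after their values were seen stood with their label: H60a was at 2546 there against 133 to 145 in WT IFNg/LPS libraries, and Plekhg1 at 61.6 against 1698 to 1930. Without that library 685 genes were called in place of 393, and 364 genes were called in both fits.

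The macrophage identity of the cultures was checked first. Csf1r, the receptor for M-CSF, was at 46926 or more in all 12 libraries. The summed signal of 17 macrophage genes was 449000 to 564000 in p110g-/- IFNg/LPS, 481000 to 545000 in WT IFNg/LPS, 317000 to 350000 in p110g-/- IL-4 and 316000 to 341000 in WT IL-4 libraries. Sums of 6 B cell markers reached at most 371, with the genotypes overlapping under both stimuli. The sum of 6 T and NK cell markers was 348 to 468 in p110g-/- against 537 to 650 in WT libraries under IFNg/LPS, where Cd4 (166 to 228 in p110g-/-, 346 to 376 in WT) was called lower, and 314 to 377 in p110g-/- against 325 to 544 in WT libraries under IL-4. Gzma was at 0 in every IFNg/LPS library. The sum of 10 dendritic cell markers was 17300 to 26000 in p110g-/- against 7880 to 10100 in WT libraries under IFNg/LPS, and 126000 to 135000 in p110g-/- against 115000 to 122000 in WT libraries under IL-4. It was made up mostly of Itgax and, in IFNg/LPS, of Ccr7, while Cd209a was at 0 in every IFNg/LPS library. The sum of 7 mast cell and basophil markers was 137 to 205 in p110g-/- and 301 to 541 in WT libraries under IL-4, and 83.4 to 212 in p110g-/- and 78.9 to 96.1 in WT libraries under IFNg/LPS. Sums of 10 fibroblast markers overlapped under both stimuli, and those of 3 erythroid markers were 3.9 to 7.0 in p110g-/- against 8.9 to 14.2 in WT libraries under IFNg/LPS and at most 31.6 under IL-4. The part of these marker differences in the results below was not tested.

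The genotype effect differed between IFNg/LPS and IL-4 for 393 genes (2.56% of those tested; limma on log2(signal + 1), Benjamini-Hochberg adjusted p under 0.05). For 160 of them (1.04%) the effect in IFNg/LPS was the higher, and for 233 (1.52%) the lower. The genotype effect itself was called for 1699 genes in IFNg/LPS (11.0%; 759 higher in p110g-/-, 4.94%, and 940 lower, 6.11%) and for 418 in IL-4 (2.72%; 160 higher, 1.04%, and 258 lower, 1.68%). Of the 393 genes, 287 had a called genotype effect in IFNg/LPS and not in IL-4, 49 in IL-4 and not in IFNg/LPS, 30 in neither and 27 in both. Those 27 divide into 15 that moved the same way under both stimuli by different amounts and 12 that moved in opposite directions. The absolute effect was the larger in IFNg/LPS for 305 of the 393 genes and the larger in IL-4 for 88. Estimates had opposite signs for 310 of the 393 (78.9%), against 47.2% of all tested genes, a description only, since genes with effects of opposite sign have the larger differences. Over all tested genes the effects in IFNg/LPS and IL-4 had a Pearson r of 0.30, without shared libraries and across genes, which are not independent replicates. At the edge of the call, Ecm1 passed with -0.97 (adjusted p 0.0498) and Nlrp1c-ps did not with -1.40 (0.0503). At an unadjusted p under 0.05 the difference held 2965 genes, and 12 of the 393 called genes had a group at or under 3 reads in every library. Calls depended on single libraries: 518 to 685 genes were called without any 1 of the 4 libraries numbered 1, and 106 to 204 without any 1 of the 8 numbered 2 or 3. Other settings gave between 80 higher and 107 lower (neither trend nor robust) and 1620 higher and 1425 lower (libraries numbered 2 and 3 only).

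**Figure D1:**
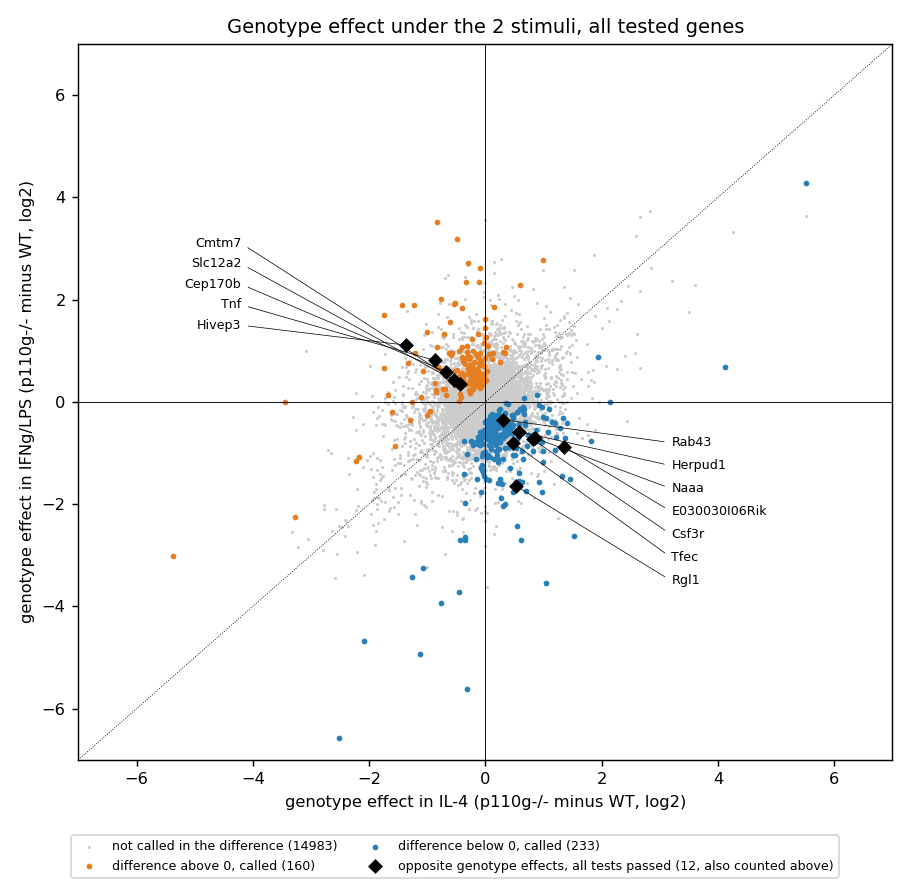
Genotype effect in IFNg/LPS (vertical axis) against that in IL-4 (horizontal axis), both p110g-/- minus WT on the log2(signal + 1) scale, for the 15376 tested genes. Orange and blue points are the 160 and 233 genes called in the difference, above and below the dotted line of equal effects, and black diamonds are the 12 genes with called effects of opposite sign, which lie in the upper left and lower right parts of the plot.

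Opposite effects were called for 12 genes, 0.0780% of those tested. They had a genotype effect called in IFNg/LPS, a genotype effect of the other sign called in IL-4, and a called difference. In p110g-/- cells 5 of them (Hivep3, Tnf, Cep170b, Slc12a2 and Cmtm7) were higher in IFNg/LPS and lower in IL-4, and 7 (E030030I06Rik, Rgl1, Naaa, Csf3r, Tfec, Herpud1 and Rab43) were lower in IFNg/LPS and higher in IL-4. In all 12 the 3 p110g-/- libraries did not overlap the 3 WT libraries under either stimulus. Of all tested genes, 385 (2.50%) were separated in opposite directions in this way. The 12 were selected by tests on these same libraries, so their separation is a description and no added support. The absolute effects of the 12 were 0.35 to 1.64 in IFNg/LPS and 0.31 to 1.37 in IL-4, on the log2 scale. The signs of both effects stayed opposite for all 12 under each of the 22 alternative settings. E030030I06Rik, Naaa and Hivep3 kept all 3 calls under each of them, and the others under 11 (Tfec and Cmtm7) to 19 (Tnf). Leaving out 1 library numbered 1 gave 17 to 42 genes of opposite effect, 9 or 10 of them among these 12, and leaving out 1 numbered 2 or 3 gave 4 to 10, with 3 to 9 among them. The number called also moved with the fit: it was 22 with all 18 libraries, 27 with the replicate number as a block, 49 with DESeq2, 159 with a block within each stimulus and 420 with libraries numbered 2 and 3 only. Promoter windows are shown for 4 of them, Tnf and Hivep3 of the first kind and Naaa and Tfec of the second, to show the sequence before the start of a cytokine gene, of genes for DNA-binding proteins and of a lipid enzyme gene. Each is the RefSeq window of GRCm38.p6 from 250 bases before to 50 after a listed start, given 5′ to 3′ on the gene's strand, with capitals for matches to the motifs searched.
Tnf: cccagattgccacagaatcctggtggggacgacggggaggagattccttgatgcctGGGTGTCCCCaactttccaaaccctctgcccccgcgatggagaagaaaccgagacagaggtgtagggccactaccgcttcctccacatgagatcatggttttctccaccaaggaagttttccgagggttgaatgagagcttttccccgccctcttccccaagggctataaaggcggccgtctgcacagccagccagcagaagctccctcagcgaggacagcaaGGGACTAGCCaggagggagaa
Hivep3: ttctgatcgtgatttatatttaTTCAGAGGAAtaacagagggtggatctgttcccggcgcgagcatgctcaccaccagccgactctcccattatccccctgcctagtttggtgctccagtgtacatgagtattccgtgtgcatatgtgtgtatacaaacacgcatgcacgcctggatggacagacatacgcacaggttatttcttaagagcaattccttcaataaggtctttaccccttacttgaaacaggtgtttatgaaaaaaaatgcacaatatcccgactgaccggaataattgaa
Naaa: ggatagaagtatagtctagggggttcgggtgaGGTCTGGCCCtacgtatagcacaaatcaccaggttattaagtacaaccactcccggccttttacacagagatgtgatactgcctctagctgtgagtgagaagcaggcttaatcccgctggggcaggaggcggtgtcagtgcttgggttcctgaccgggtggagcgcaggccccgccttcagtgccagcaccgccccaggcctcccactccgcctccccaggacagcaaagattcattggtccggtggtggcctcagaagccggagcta
Tfec: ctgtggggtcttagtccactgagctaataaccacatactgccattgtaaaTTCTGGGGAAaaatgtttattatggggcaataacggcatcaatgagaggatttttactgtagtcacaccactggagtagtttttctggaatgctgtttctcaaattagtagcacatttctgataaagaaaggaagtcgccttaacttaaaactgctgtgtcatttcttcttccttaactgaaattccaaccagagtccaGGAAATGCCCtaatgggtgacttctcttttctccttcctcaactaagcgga
The windows lie at chr17:35201958-35202257 for Tnf, chr4:119814428-119814727 for Hivep3, chr5:92278132-92278431 for Naaa and chr6:16898392-16898691 for Tfec. Motifs were searched on both strands as GGG and CC with 5 bases of any kind between them (NF-kB site), TTC and GAA with 4 between them (STAT6 site) or with 3 (the gamma-activated site), GAAA and GAAA with 2 between them (interferon-stimulated response element) and TGANTCA (AP-1 site). Windows were listed for 11 of the 12 genes, and Slc12a2 was not matched. The NF-kB letters were in 8 of the 11 windows and in 50.4% of all 27025 mouse windows. STAT6 letters were in 2 of the 11 (Hivep3 and Tfec) and in 6.99% of all windows. The other 3 motifs were in none of the 11, and in 8.47%, 3.49% and 7.93% of all windows. A match is a description of letters and no evidence of binding.

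Tnf encodes tumour necrosis factor, a cytokine that LPS-treated macrophages secrete. Its signal was 21914, 27173 and 24018 in p110g-/- and 16198, 13235 and 12497 in WT libraries in IFNg/LPS. In IL-4 it was 154, 134 and 119.6 in p110g-/- and 202, 294 and 255 in WT libraries. All 3 p110g-/- libraries thus lay above all WT libraries in IFNg/LPS and below them in IL-4, where Tnf was expressed far less. Its effects were 0.81 (SE 0.15, adjusted p 0.0063) in IFNg/LPS and -0.87 (SE 0.15, adjusted p 0.010) in IL-4, and the difference was 1.67 (SE 0.21, adjusted p 0.0034). Hivep3, a zinc finger protein that binds kappa-B-like DNA, had the largest difference of the 12, 2.48 (SE 0.31, adjusted p 0.0034). It stood at 844, 1034 and 978 in p110g-/- and 539, 368 and 425 in WT libraries in IFNg/LPS. In IL-4 the values were 164, 139.5 and 107 in p110g-/- and 256, 367 and 456 in WT libraries. Its effects were 1.11 in IFNg/LPS and -1.37 in IL-4, and the genotypes did not overlap under either stimulus.

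The other 3 genes of this kind moved less. Cep170b, a relative of the centrosomal protein Cep170, was at 957, 1301 and 1048 in p110g-/- and 661, 778 and 742 in WT libraries in IFNg/LPS. Under IL-4 it was at 425, 328 and 349.7 in p110g-/- and 571, 604 and 584 in WT libraries. The effects were 0.59 in IFNg/LPS and -0.68 in IL-4, a difference of 1.27 (SE 0.18, adjusted p 0.0062). Slc12a2 encodes a sodium, potassium and chloride cotransporter. Its values were 275, 273 and 284 in p110g-/- and 196, 205 and 221 in WT libraries in IFNg/LPS, and 291, 228 and 254 in p110g-/- and 364, 358 and 399 in WT libraries in IL-4. In p110g-/- cells the levels under the 2 stimuli overlapped, whereas in WT cells every IL-4 library lay above every IFNg/LPS library. The difference was 0.96 (SE 0.15, adjusted p 0.011). Cmtm7, a membrane protein of the chemokine-like factor family, was at 5307, 6066 and 4971 in p110g-/- and 3998, 4490.1 and 4291 in WT libraries in IFNg/LPS. Its values in IL-4 were 1131, 1191 and 1407 in p110g-/- and 1638, 1649 and 1714 in WT libraries. The difference of 0.78 (SE 0.13, adjusted p 0.015) was the smallest of the 5, and it was not called without p110g-/- IL-4 number 2 (adjusted p 0.051) or without WT IL-4 number 3 (0.054).

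**Figure D2:**
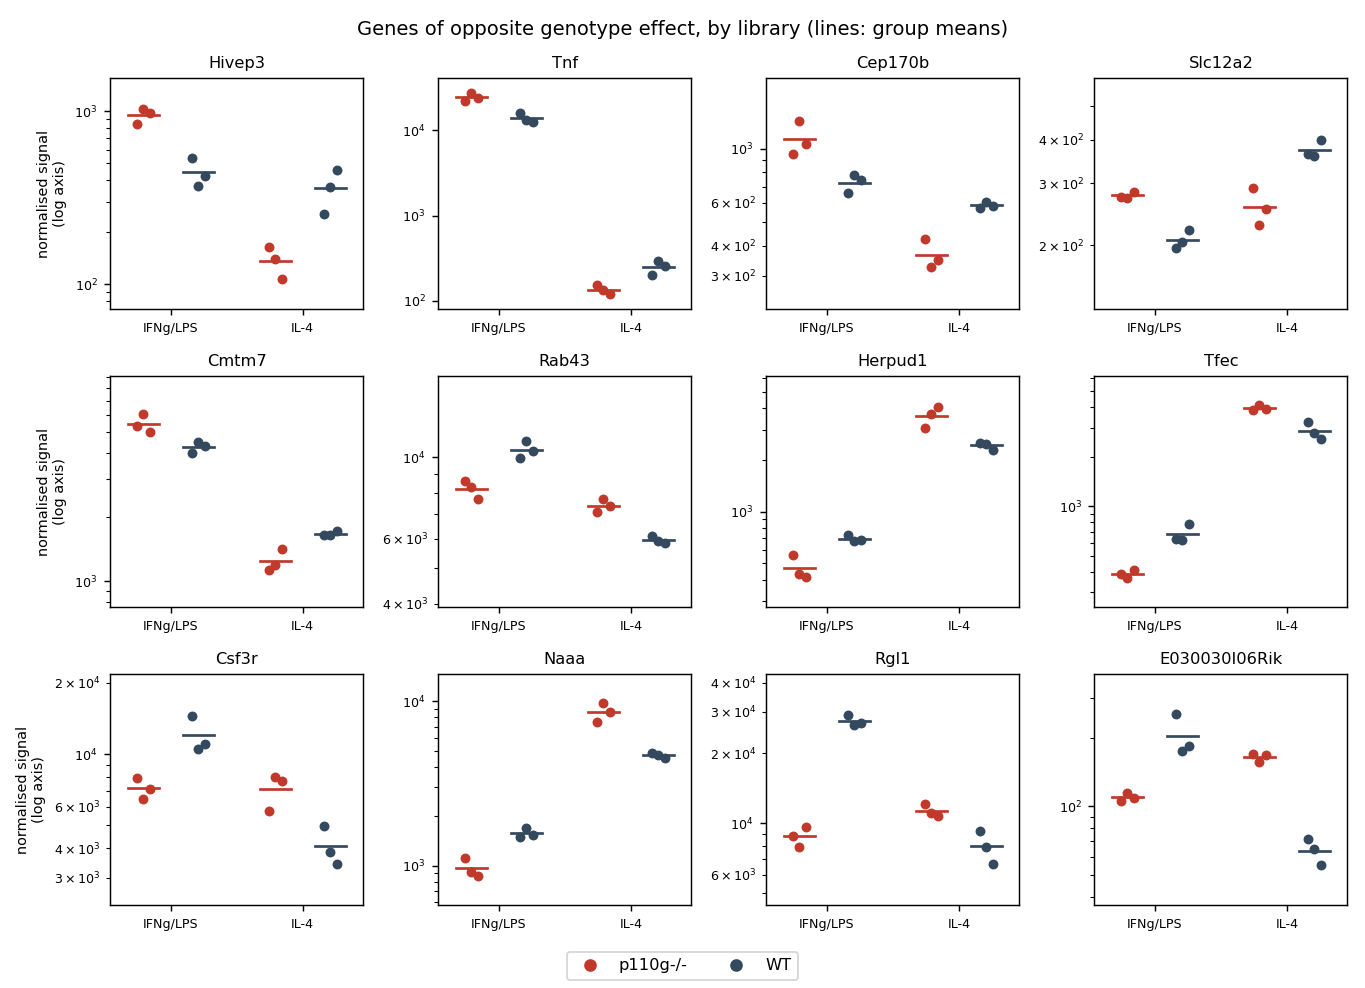
Normalised signal (log axis) of the 12 genes in each of the 12 libraries, p110g-/- in red and WT in dark blue, with lines at group means. In every panel the red and blue points of a stimulus do not overlap, and their order turns over between IFNg/LPS on the left and IL-4 on the right.

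Among the 7 genes of the other kind, Rgl1 had the smallest adjusted p. It encodes an exchange factor that links Ras to Ral GTPases. Rgl1 was at 8818, 7919 and 9673 in p110g-/- and 29006, 26278 and 26895 in WT libraries in IFNg/LPS. Values in IL-4 were 12049, 11035 and 10743 in p110g-/- and 9283, 7891 and 6669 in WT libraries. Most of the difference of -2.16 (SE 0.16, adjusted p 0.00017) lay in IFNg/LPS, where the effect was -1.64, against 0.52 in IL-4. E030030I06Rik, which the sources used here give no function, had the largest absolute difference of the 7, -2.24 (SE 0.22, adjusted p 0.00097). Its values were 106, 114 and 109 in p110g-/- and 254, 176 and 185 in WT libraries in IFNg/LPS, and 171, 156 and 168 in p110g-/- and 71.5, 64.7 and 55.0 in WT libraries in IL-4. Here IFNg/LPS was the stimulus of the higher level in WT cells and of the lower level in p110g-/- cells.

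Naaa encodes a lysosomal amidase that breaks down palmitoylethanolamide. It stood at 1124, 912 and 863 in p110g-/- and 1497, 1706 and 1532 in WT libraries in IFNg/LPS. In IL-4 it stood at 7463, 9740.4 and 8600.1 in p110g-/- and 4840.1, 4725 and 4550.1 in WT libraries. The effects of -0.71 in IFNg/LPS and 0.86 in IL-4 gave a difference of -1.58 (SE 0.16, adjusted p 0.00097), so the gap between the stimuli was wider in p110g-/- cells. Tfec, a transcription factor of the Mitf family found in macrophages, was at 386, 365 and 409 in p110g-/- and 630.4, 623 and 785 in WT libraries in IFNg/LPS. Under IL-4 it was at 3835, 4111 and 3922 in p110g-/- and 3261, 2784 and 2576 in WT libraries. Its difference was -1.27 (SE 0.15, adjusted p 0.0029), with the gap between stimuli again the wider in p110g-/- cells. Herpud1, which helps clear misfolded proteins from the endoplasmic reticulum, was at 558, 434 and 415 in p110g-/- and 726, 675 and 679 in WT libraries in IFNg/LPS. Herpud1 in IL-4 was at 3077, 3706 and 4089 in p110g-/- and 2509, 2492 and 2291 in WT libraries. The difference was -1.14 (SE 0.17, adjusted p 0.0090), and Herpud1 was the only called member of the 20 unfolded protein response genes tested, against 2.56% of all tested genes. The median difference of the 20 was -0.18, against 0.0 over all tested genes.

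Csf3r encodes the receptor for granulocyte colony-stimulating factor. It was at 7949, 6491 and 7132 in p110g-/- and 14490.3, 10554 and 11017 in WT libraries in IFNg/LPS. Under IL-4 the values were 5732, 7999 and 7705 in p110g-/- and 4945, 3851 and 3443 in WT libraries, and the difference was -1.54 (SE 0.24, adjusted p 0.0098). Neutrophils also carry this receptor. The sum of 12 neutrophil markers was 3080 to 16800 in p110g-/- and 9720 to 23200 in WT libraries in IFNg/LPS, and 5950 to 11100 in p110g-/- and 5740 to 26700 in WT libraries in IL-4. Of the 12, S100a8 was lower in all p110g-/- libraries in IFNg/LPS (416 to 801 in p110g-/-, 1088 to 1906 in WT) and Cxcr2 in all p110g-/- libraries in IL-4 (127 to 149 in p110g-/-, 153 to 176 in WT), and the other markers overlapped between genotypes. In IFNg/LPS, Lcn2 was at 1798 to 14811 in p110g-/- and 6931 to 19461 in WT libraries, while Elane was at 0 in every library. Their part in the Csf3r difference was not tested. Rab43, a small GTPase of vesicle traffic, had the smallest difference of the 12 genes of opposite effect, -0.66 (SE 0.09, adjusted p 0.0069). It was at 8626, 8269 and 7705 in p110g-/- and 9912, 11044 and 10411 in WT libraries in IFNg/LPS, and at 7085, 7674 and 7354 in p110g-/- and 6119.8, 5906 and 5858 in WT libraries in IL-4.

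The 6 M-CSF libraries, which the comparison does not use, gave the same genotype contrast in another medium. Those cells had M-CSF alone, at 20 ng/ml, over 24 h. The genotype effect in M-CSF was called for 306 genes (1.99%; 137 higher, 0.891%, and 169 lower, 1.10%), among them 34 of the 393 (8.65%) and 1 of the 12, Rgl1. In M-CSF, Rgl1 averaged 4178 in p110g-/- and 2909 in WT libraries, a log2 effect of 0.53 (SE 0.09, adjusted p 0.034) with the sign it had in IL-4. The estimate in M-CSF had the sign of the IL-4 effect for 10 of the 12 genes and of the IFNg/LPS effect for 2. Those 2 were Hivep3 (0.06, SE 0.14) and Tnf (0.02, SE 0.2). Among the 10, Naaa (0.02, SE 0.13) and Tfec (0.03, SE 0.22) also had estimates smaller than their SE, so these 4 signs are undecided. For 11 genes the estimate lay between the effects in IFNg/LPS and IL-4. The 12 were selected for effects of opposite sign, and any small estimate lies between such effects. Neither count was compared with all tested genes, so whether M-CSF resembled IL-4 was not tested. Apart from Rgl1 none of the 12 estimates in M-CSF passed the test.

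**Figure D3:**
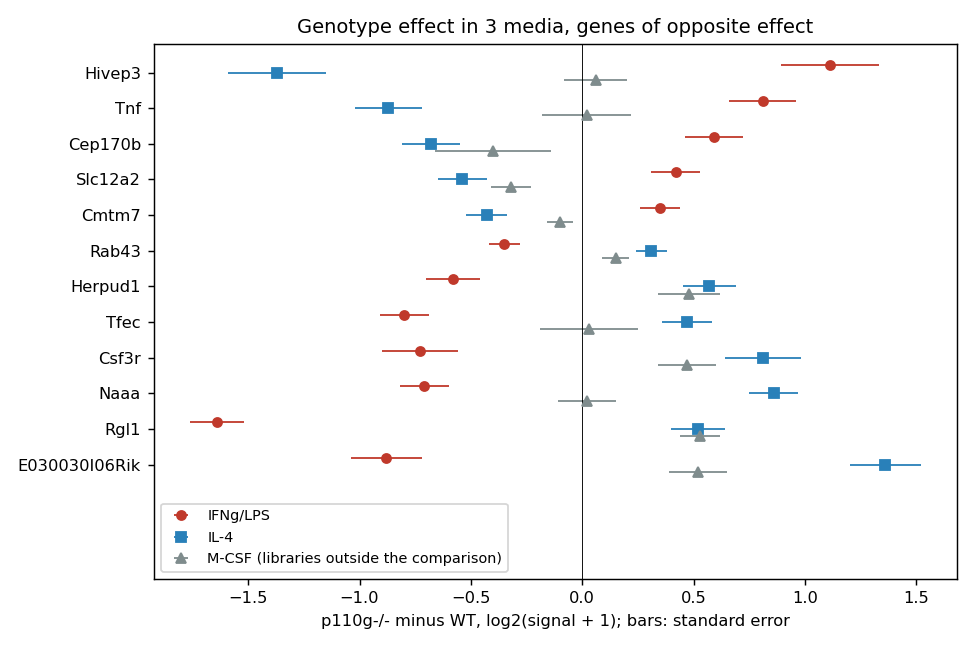
Genotype effect (p110g-/- minus WT, log2, bars are standard errors) of the 12 genes in IFNg/LPS (circles), IL-4 (squares) and M-CSF (triangles). The circles and squares lie on opposite sides of 0 in every row. The M-CSF effect of Rgl1, 0.53, lies beside its IL-4 effect of 0.52, and those of Tnf, Naaa, Tfec and Hivep3 lie between 0.02 and 0.06.

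Beyond the 12 genes, the genes of smallest adjusted p were mostly ones whose genotype effect was called in IFNg/LPS only. Among those with the higher effect in IFNg/LPS, Ktn1, the kinesin-binding membrane protein kinectin, was at 23841, 26132 and 18119 in p110g-/- and 5237, 4231 and 3899 in WT libraries in IFNg/LPS. Under IL-4 it was at 1521, 1403 and 1392 in p110g-/- and 1425, 1556 and 1697 in WT libraries, and the genotypes overlapped. Its effects were 2.34 in IFNg/LPS and -0.11 in IL-4, a difference of 2.46 (SE 0.20, adjusted p 0.00020). Inpp4b, a phosphatase that removes a phosphate from a product of phosphoinositide 3-kinases, was at 227, 197 and 209.5 in p110g-/- and 23.6, 17.7 and 26.8 in WT libraries in IFNg/LPS. Inpp4b in IL-4 was at 15.1, 22.3 and 10.8 in p110g-/- and 23.2, 17.4 and 25.8 in WT libraries. The p110g-/- IFNg/LPS libraries thus stood above all 9 others, which overlapped one another, and the difference was 3.65 (SE 0.38, adjusted p 0.00097). Itgb8, an integrin subunit that activates latent TGF-beta, had a difference of 2.71 (SE 0.30, adjusted p 0.0015). Apbb3, an adaptor of the Fe65 family, had a difference of 1.71, Itpr2, a calcium channel of the endoplasmic reticulum, 1.09, Fam32a 1.05, and the forkhead factor Foxp4 0.99. Stard4, a sterol transfer protein, rose under both stimuli, by 2.29 in IFNg/LPS and 0.60 in IL-4. Its values were 536, 511 and 583 in p110g-/- and 114, 108 and 107 in WT libraries in IFNg/LPS, and 2236, 1982 and 1882 in p110g-/- and 1451, 1277 and 1286 in WT libraries in IL-4. The difference for Stard4 was 1.69 (SE 0.13, adjusted p 0.00017).

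Among genes with the lower effect in IFNg/LPS, Csrp1, a LIM domain protein of the actin cytoskeleton, had the smallest adjusted p. It was at 1483, 2249 and 2153 in p110g-/- and 11464, 13834 and 12666 in WT libraries in IFNg/LPS. In IL-4 it was at 7240.3, 6215 and 6379 in p110g-/- and 4918, 4055 and 3946 in WT libraries. The genotypes were separated in opposite directions, with effects of -2.71 (adjusted p 1.8e-06) in IFNg/LPS and 0.62 in IL-4, the second of which did not pass its test (adjusted p 0.053). The difference was -3.33 (SE 0.21, adjusted p 6.6e-05). Phyh, the peroxisomal enzyme that starts the breakdown of phytanic acid, was likewise separated both ways, with a difference of -0.90 (SE 0.10, adjusted p 0.0019) and an IL-4 effect of 0.28 that did not pass (adjusted p 0.071). Cysltr2, a receptor for cysteinyl leukotrienes, fell under both stimuli and fell further in IFNg/LPS. Its signal was 12.8, 7.6 and 15.6 in p110g-/- and 1764, 1048 and 937 in WT libraries in IFNg/LPS, and 23.0, 13.6 and 17.0 in p110g-/- and 104, 116 and 96.0 in WT libraries in IL-4. The difference was -4.06 (SE 0.42, adjusted p 0.00097). Plekhg1, a guanine nucleotide exchange factor, and the predicted gene Gm9199 also fell under both, with differences of -2.60 and -3.81. In IFNg/LPS, Nxpe5 fell by 3.94, and it had an IL-4 effect of -0.77 (adjusted p 0.14), with a difference of -3.17 (SE 0.34, adjusted p 0.0013). All these genes of smallest adjusted p in either direction were called under each of the 22 alternative settings.

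The study's stimuli are usually read by their inflammatory and alternative markers, and these moved in part. Of 28 inflammatory cytokine and chemokine genes tested, 3 (Tnf, Il1b and Il12b) were called higher in the difference and none lower, against 1.04% and 1.52% of all tested genes. edgeR called 1 of the 28 and DESeq2 3. The median difference was 0.69, against 0.0 over all tested genes, and 20 of the 28 estimates were above 0, against 7724 of all 15376. Il1b, which encodes interleukin 1 beta, was at 260392, 85032 and 98981 in p110g-/- and 91812, 22987 and 30911 in WT libraries in IFNg/LPS, where the groups overlapped. Il1b in IL-4 was at 2.9, 3.9 and 6.2 in p110g-/- and 16.7, 17.4 and 15.2 in WT libraries. The difference was 3.44 (SE 0.70, adjusted p 0.030), with neither genotype effect called (adjusted p 0.051 in IFNg/LPS and 0.10 in IL-4), and the p110g-/- values in IL-4 were near the limit of 3 reads. With a pseudocount of 10 the difference was 2.58 and was not called (adjusted p 0.066), nor was it with neither trend nor robust (0.060) or with edgeR on the recovered reads (0.17). It was not called without p110g-/- IFNg/LPS number 3 or without any 1 of the libraries numbered 2 or 3 in the other 3 groups (adjusted p 0.053 to 0.087). Il12b, the shared subunit of interleukins 12 and 23, was at 30984, 20297 and 14779 in p110g-/- and 6737, 2405 and 2007 in WT libraries in IFNg/LPS. In IL-4 it was near the limit of 3 reads in both genotypes, between 0.8 and 4.6. Its fitted difference of 3.02 (SE 0.68, adjusted p 0.043) therefore rests on the rise in IFNg/LPS (effect 2.72, adjusted p 0.0049), and the difference was not called with edgeR (adjusted p 0.44), DESeq2 (0.050) or neither trend nor robust (0.074). It was called without WT IFNg/LPS number 1 or p110g-/- IL-4 number 1, and without any other single library it was not (adjusted p 0.055 to 0.11). Il12a and Il6 were not called (adjusted p 0.21 and 0.29). Il6 was called with libraries numbered 2 and 3 only (0.0046), and Il12a with the block within each stimulus (0.022). Il12a was at or under 3 reads in every IL-4 library, and at 583, 99.7 and 135 in p110g-/- and 119.6, 16.8 and 22.1 in WT libraries in IFNg/LPS.

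Cd14, the co-receptor through which Toll-like receptor 4 sees LPS, was at 101670.1, 82307 and 77124 in p110g-/- and 29075, 18635 and 21898 in WT libraries in IFNg/LPS. The IL-4 values were 1169, 1663 and 1808 in p110g-/- and 1407, 2706 and 2861 in WT libraries. It rose in IFNg/LPS (1.92, adjusted p 0.0012), its IL-4 estimate was -0.54 (adjusted p 0.41), and the difference was 2.47 (SE 0.38, adjusted p 0.0093). Of the 17 macrophage identity genes tested, Cd14 was called higher and 4 were called lower, against 1.04% and 1.52% of all tested genes, with a median of -0.32. Among those 4 were the Fc receptor genes Fcgr4 (-1.28) and Fcgr3 (-0.78) and the LPS receptor Tlr4 (-0.86). Cd14 and Tlr4, which act together, thus moved oppositely in the difference. Tlr4 was at 2755.4 to 3934.0 in p110g-/- and 4588.5 to 5890.7 in WT libraries in IFNg/LPS. In IL-4 it was at 7417.5 to 9139.7 in p110g-/- and 7125.5 to 7950.1 in WT libraries. Fcgr3 and Tlr4 lie outside the naming rule, and their calls were not followed under the alternative settings. Icam1, an adhesion molecule and the only called gene of 20 in the NF-kB list (median 0.07; 2.56% of all tested genes were called), was separated oppositely, with an effect of 0.26 in IFNg/LPS (adjusted p 0.23) and -0.69 in IL-4 (adjusted p 0.016), and a difference of 0.95 (SE 0.18, adjusted p 0.025). Icam1 and Fcgr4 each lost the call without any 1 of the 8 libraries numbered 2 or 3 (adjusted p 0.056 to 0.11) and with neither trend nor robust (0.053 for Icam1 and 0.069 for Fcgr4). Fcgr4 also lost it with edgeR (0.052) and with quantile normalisation (0.066).

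Of 29 alternative activation genes tested, 4 were called lower and none higher, against 1.52% and 1.04% of all tested genes, with a median of -0.34. They were Il4ra, which encodes the IL-4 receptor chain, Arg1, Mrc1 and Pdcd1lg2. Arg1, which encodes arginase, was at 104, 74.0 and 77.0 in p110g-/- and 551, 593 and 518 in WT libraries in IFNg/LPS. Arg1 in IL-4 was at 3157, 4593 and 4835 in p110g-/- and 2949, 7251 and 6736 in WT libraries. The genotypes were apart in IFNg/LPS (-2.71, adjusted p 0.00026) and overlapped in IL-4 (-0.35, adjusted p 0.71), and the difference was -2.36 (SE 0.42, adjusted p 0.017). Mrc1, the mannose receptor, was at 238, 350.2 and 333 in p110g-/- and 629, 638 and 447 in WT libraries in IFNg/LPS, and at 57253, 76734 and 80945 in p110g-/- and 53084, 55252 and 51922 in WT libraries in IL-4. The libraries were separated in opposite directions, but only the IFNg/LPS effect of -0.89 passed (adjusted p 0.0090, against 0.32 for 0.41 in IL-4), and the difference was -1.30 (SE 0.25, adjusted p 0.025). Il4ra fell in IFNg/LPS by 0.92 and was not called in IL-4 (0.21, adjusted p 0.56), with a difference of -1.13 (SE 0.19, adjusted p 0.013). Pdcd1lg2, a ligand of the checkpoint receptor PD-1, rose in IL-4 by 1.08 (adjusted p 0.045) and had a difference of -1.67 (SE 0.36, adjusted p 0.035). Arg1 was not called without WT IFNg/LPS number 2 or p110g-/- IL-4 number 2 or 3 (adjusted p 0.053 to 0.062). Mrc1 was not called without WT IFNg/LPS number 2 or any 1 of the IL-4 libraries numbered 2 or 3 (0.070 to 0.076). Pdcd1lg2 lost its call in the same 5 cases and without p110g-/- IFNg/LPS number 2 or 3 (0.078 to 0.098). With neither trend nor robust, Mrc1 (0.053) and Pdcd1lg2 (0.063) were not called. Retnla was at or under 3 reads in every p110g-/- IFNg/LPS library. In WT IFNg/LPS libraries it was at 0.0, 95.2 and 1.6, where only number 2 stood above that limit. In IL-4 it was at 269012, 682610.4 and 697974 in p110g-/- and 160556, 284183 and 214466 in WT libraries. Retnla was not called with limma (adjusted p 0.31) and was called with DESeq2 (0.00069). The part of WT IFNg/LPS number 2 in the DESeq2 call was not tested.

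**Figure D4:**
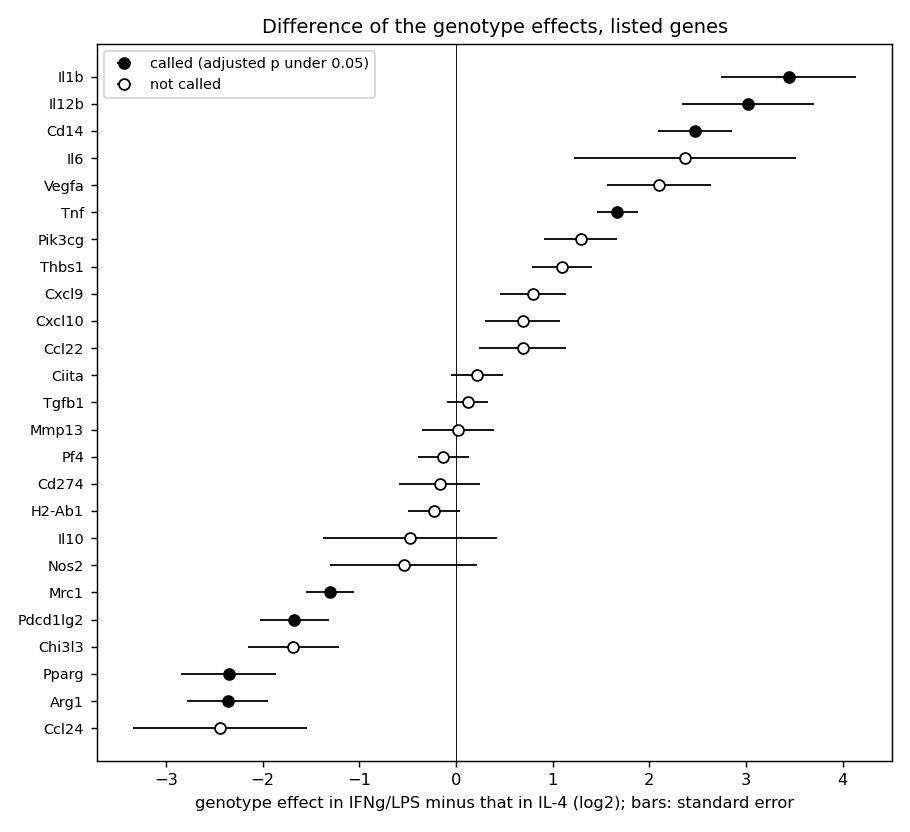
Difference of the genotype effects (IFNg/LPS minus IL-4, log2, bars are standard errors) for 25 listed genes of macrophage activation, filled where called. Il1b, Il12b, Cd14 and Tnf are filled above 0, and Arg1, Pparg, Pdcd1lg2 and Mrc1 are filled below it. Il12a, Retnla and Ccl17, each with a group at or under 3 reads in every library, are left out.

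Genes of lipid handling were also lower in part: 3 of the 20 LXR and PPARg genes tested were called lower and none higher, against 1.52% and 1.04% of all tested genes, with a median of -0.33. Pparg, the lipid-sensing nuclear receptor, was at 47.7, 107 and 124 in p110g-/- and 208, 442 and 498 in WT libraries in IFNg/LPS. Pparg in IL-4 was at 12044, 10595 and 10952 in p110g-/- and 9119, 9156 and 8827 in WT libraries. The difference was -2.35 (SE 0.49, adjusted p 0.033), with the larger effect in IFNg/LPS (-2.04, adjusted p 0.0039). Nr1h3, the oxysterol receptor LXR alpha, rose in IL-4 by 0.68 (adjusted p 0.033) and had a difference of -1.14 (SE 0.21, adjusted p 0.021). Plin2, which coats lipid droplets, had an effect of -1.30 in IFNg/LPS (adjusted p 0.00084) and had a difference of -1.23 (SE 0.24, adjusted p 0.026). Pparg, Nr1h3 and Plin2 each lost the call without WT IFNg/LPS number 3, p110g-/- IL-4 number 3 or either of WT IL-4 numbers 2 and 3, and in part without other libraries numbered 2 or 3 (adjusted p 0.053 to 0.089). With neither trend nor robust, Pparg (0.062) and Plin2 (0.052) were not called. Lgmn, a lysosomal protease, had a difference of -1.15 (SE 0.18, adjusted p 0.0094). It was the only gene of 30 in the lysosome list called in the difference (median -0.22), a share near the 2.56% of all tested genes. Of the 30, 8 were called lower in p110g-/- in IFNg/LPS and 0 in IL-4, against 6.11% and 1.68% of all tested genes. Estimates of the difference were below 0 for 25 of the 30, against 7652 of all 15376. Of 21 complement and scavenger receptor genes, Stab1, a scavenger receptor, was called higher and Cfp, which encodes properdin, lower, against 1.04% and 1.52% of all tested genes. Cfp was not called without WT IL-4 number 1 or any 1 of the 8 libraries numbered 2 or 3 (adjusted p 0.061 to 0.11), with quantile normalisation (0.061) or with neither trend nor robust (0.072). Stab1 fell in IL-4 by 1.61 and had a difference of 1.42 (SE 0.19, adjusted p 0.0050), while Cfp had a difference of -1.55 (SE 0.34, adjusted p 0.040).

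In several lists limma called no gene in the difference. Over all tested genes, 19.3% had an unadjusted p under 0.05, edgeR called 2.24%, and DESeq2 called 9.95% of the 12690 to which it gave an adjusted p. Of 29 genes of the PI3K, Akt and mTOR pathway, the pathway p110g feeds, 9 had an unadjusted p under 0.05, DESeq2 called 6 and edgeR 0, with a median difference of 0.18. Of 27 sterol and fatty acid synthesis genes 22 had estimates above 0 (median 0.42), 11 had an unadjusted p under 0.05, DESeq2 called 7 and edgeR 0. Glycolysis and hypoxia genes had 23 of 24 estimates above 0 (median 0.41), with 8 at an unadjusted p under 0.05, 2 called by DESeq2 and 0 by edgeR. Estimates thus lay mostly on 1 side in both lists without passing the main test. Cell cycle genes had 26 of 31 estimates below 0 (median -0.23), with 3 at an unadjusted p under 0.05 and 0 called by either tool. Over all 15376 tested genes, 7724 estimates were above 0 and 7652 below. Genes of a list are not independent replicates, so these counts of signs are a description only.

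The interferon and antigen presentation lists held no limma call in the difference either. Genes induced by type I interferon (29 tested, median 0.23) had 6 at an unadjusted p under 0.05, 3 called by DESeq2 and 0 by edgeR. GTPases and factors induced by interferon gamma (20 tested, median -0.17) had 4, 2 and 0 by the same 3 counts, and anti-inflammatory and repair factors (24 tested, median 0.12) had 8, 4 and 2. Immediate early genes (20 tested, median 0.16) had 2, 2 and 0. MHC class II genes (15 tested, median -0.17) had 1, 1 and 0. Their median effects were 0.43 in IFNg/LPS and 0.50 in IL-4, and 3 of the 15 were called higher in p110g-/- under each stimulus, against 4.94% of all tested genes in IFNg/LPS and 1.04% in IL-4. Of the 29 type I interferon genes, 5 were called lower in p110g-/- in IL-4 and 0 in IFNg/LPS, against 1.68% and 6.11% of all tested genes. The medians of these 29 were -0.60 in IL-4 and -0.25 in IFNg/LPS. Of the 20 interferon gamma genes, 3 were called lower in IFNg/LPS, and 2 lower and 1 higher in IL-4. Markers of other cell types held no limma or edgeR call in the difference. The medians were -0.47 for 12 neutrophil, 0.09 for 10 dendritic cell, -0.61 for 10 fibroblast, 0.72 for 6 mast cell and basophil, -0.18 for 5 B cell and -0.15 for 5 T and NK cell markers, and the 1 erythroid marker tested stood at -0.85. Unadjusted p was under 0.05 for 2 dendritic cell, 1 fibroblast and 1 mast cell and basophil marker and for 0 of the others, and DESeq2 called 1 fibroblast marker.

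Some genes named by rule were not called in the difference, and of these Mmp13 and Pf4 had a called genotype effect of like size under both stimuli. Mmp13, a collagenase, was at 7026, 3868 and 6722 in p110g-/- and 11513, 19266 and 16535 in WT libraries in IFNg/LPS, and at 2985, 2719 and 2111 in p110g-/- and 5417, 8869 and 7488 in WT libraries in IL-4. Its effect was -1.44 in IFNg/LPS (adjusted p 0.0057) and -1.46 in IL-4 (adjusted p 0.013), with no overlap of the genotypes under either stimulus, and the difference was 0.02 (SE 0.37, adjusted p 0.98). Pf4, a platelet chemokine also made by macrophages, was at 128, 112 and 156 in p110g-/- and 384, 494 and 398 in WT libraries in IFNg/LPS, and at 179, 292 and 249 in p110g-/- and 639.8, 747 and 689 in WT libraries in IL-4. Its effect was -1.69 in IFNg/LPS (adjusted p 0.00028) and -1.55 in IL-4 (adjusted p 0.00078), with a difference of -0.13 (SE 0.26, adjusted p 0.83). Cxcl9, an interferon-induced chemokine, was at 5.0, 6.8 and 9.3 in p110g-/- and 19.5, 22.4 and 12.9 in WT libraries in IL-4, against 105746 to 164211 in p110g-/- and 174869 to 232180 in WT libraries in IFNg/LPS. It fell in IL-4 (-1.26, adjusted p 0.018), and its difference of 0.80 (SE 0.34) had an adjusted p of 0.23. Nos2, which encodes the inducible nitric oxide synthase, had a difference of -0.54 (SE 0.76, adjusted p 0.76), and Il10 one of -0.48 (SE 0.90, adjusted p 0.83). The Il10 effects were -2.14 in IFNg/LPS (adjusted p 0.053) and -1.65 in IL-4 (adjusted p 0.25), with no overlap of the genotypes under either stimulus. Vegfa, an angiogenic factor, had effects of 1.03 in IFNg/LPS and -1.07 in IL-4, Thbs1 of 1.31 and 0.21, and Chi3l3 of -0.73 and 0.95. None of their differences passed: 2.10 (SE 0.54, adjusted p 0.067) for Vegfa, 1.10 (adjusted p 0.081) for Thbs1 and -1.68 (adjusted p 0.082) for Chi3l3. Each was called under some alternatives: Vegfa with edgeR (0.042), DESeq2 (0.00037), all 18 libraries (0.037) and the replicate block (0.037), Thbs1 with DESeq2 (0.010) and the replicate block (0.0078), and Chi3l3 with DESeq2 (0.0092). Vegfa and Thbs1 were also called with libraries numbered 2 and 3 only (0.0061 and 0.00094) and with the block within each stimulus (0.011 and 0.0031). Without WT IL-4 number 1, Vegfa was called too (0.0025). Ccl17, which encodes a T cell attracting chemokine, was at or under 3 reads in every WT IFNg/LPS library and at 4.7, 1.9 and 1.0 in p110g-/- libraries there, and stood at 147, 132 and 174 in p110g-/- and 78.0, 51.4 and 56.2 in WT libraries in IL-4. Its IL-4 libraries did not overlap, but the IL-4 effect was not called (adjusted p 0.27). Of the other genes named by rule, Ccl22, Ccl24, Cxcl10, Ciita, H2-Ab1, Cd274 and Tgfb1 had adjusted p of 0.17 to 0.87. Of these, Ccl22 was called with libraries numbered 2 and 3 only (0.0019). Ccl24 was called with the replicate block (0.033), with the block within each stimulus (0.0012) and without p110g-/- IL-4 number 1 (0.043).

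**Figure D5:**
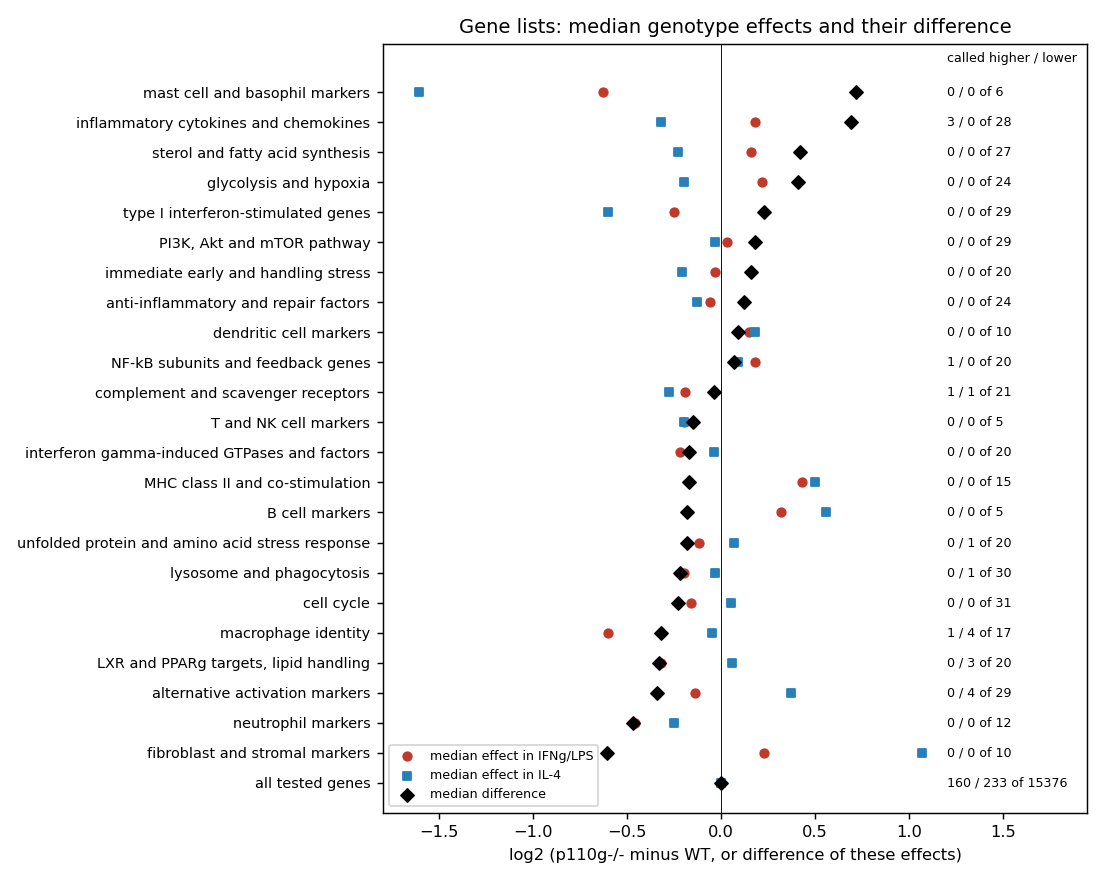
Median genotype effect in IFNg/LPS (circles) and in IL-4 (squares), and the median difference (diamonds), for 23 gene lists and all tested genes, on the log2 scale. The counts at the right give the genes called higher and lower in the difference. Inflammatory cytokines stand at 0.69 with 3 called higher, and alternative activation markers at -0.34 with 4 called lower.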

How the data were processed

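Total RNA of 18 cultures was sequenced on an Illumina HiSeq2000, per the labels. Reads were processed with CASAVA 1.8.2, Bowtie2 and DESeq on genome build mm9, per the submitters' processing notes. The counting method, its use of strand and the other versions are not given in the sources used here, so values of overlapping genes and near-identical copies are uncertain. The deposited signal is each gene's read count over a library-wide factor, kept to 1 decimal by the authors: 99.84 to 100.0% of values were whole multiples of 1 step within 0.1, which gave the recovered reads. Intervals from 3 reads cover counting error only.

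The difference was fitted with limma 3.58.1 (R 4.3.3, trend and robust) on log2(signal + 1), which understates the change of low genes, as 4 group means over 12 libraries with 8 residual degrees of freedom. Adjustment was by Benjamini-Hochberg over the 15376 genes tested. The M-CSF effect was fitted separately. The code was tested on simulated data. Alternatives were pseudocount 10, no filter, all 18 libraries, the replicate number as a block, neither trend nor robust, quantile normalisation, edgeR 4.0.16 and DESeq2 1.42.0 on recovered reads, libraries numbered 2 and 3 only, and leaving out each library. A block within each stimulus was added after seeing the data. Same-numbered libraries of the genotypes deviated together in IFNg/LPS (r 0.272 to 0.568) and less so in IL-4 (0.045 to 0.434). For other numbers r was -0.424 to 0.209 in IFNg/LPS and -0.402 to 0.263 in IL-4. In IL-4 number 3 had r of 0.045 for the same number and up to 0.130 for other numbers.

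The genes named are 28 listed genes, all of opposite effect, the 10 of smallest adjusted p per direction with a group mean of at least 50, and up to 3 called members of each gene list; 1 gene this rule names is not reported here. The members and the 24 lists (453 of 479 symbols tested) were chosen with earlier results of these data known. Genes with a group at or under 3 reads in every library are given by level.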

Additional observations from a re-analysis of the deposited data

Results flagged for a closer look

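For 41 of the 61 named genes the genotype effects in IFNg/LPS and in IL-4 differed by the test of the difference itself (limma, adjusted p under 0.05), and all of them are described above. Values here are the log2 difference, effect in IFNg/LPS minus effect in IL-4. Of the 12 genes with called effects of opposite sign, the difference was 2.48 for Hivep3, 1.67 for Tnf, 1.27 for Cep170b, 0.96 for Slc12a2 and 0.78 for Cmtm7. It was -2.24 for E030030I06Rik, -2.16 for Rgl1, -1.58 for Naaa, -1.54 for Csf3r, -1.27 for Tfec, -1.14 for Herpud1 and -0.66 for Rab43.

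Among the other genes of smallest adjusted p, the difference was 3.65 for Inpp4b, 2.71 for Itgb8, 2.46 for Ktn1, 1.71 for Apbb3, 1.69 for Stard4, 1.09 for Itpr2, 1.05 for Fam32a and 0.99 for Foxp4. It was -4.06 for Cysltr2, -3.81 for Gm9199, -3.33 for Csrp1, -3.17 for Nxpe5, -2.60 for Plekhg1 and -0.90 for Phyh. Among inflammatory, macrophage and adhesion genes it was 3.44 for Il1b, 3.02 for Il12b, 2.47 for Cd14, 1.42 for Stab1 and 0.95 for Icam1. Alternative activation genes had -2.36 for Arg1, -1.67 for Pdcd1lg2, -1.30 for Mrc1 and -1.13 for Il4ra. The remaining genes had -2.35 for Pparg, -1.55 for Cfp, -1.28 for Fcgr4, -1.23 for Plin2, -1.15 for Lgmn and -1.14 for Nr1h3.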

How the results depend on the processing

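Counts of calls moved with the setting, and the cause was not tested. Against 160 genes higher and 233 lower in the difference, there were 455 and 459 with all 18 libraries, 336 and 369 with the replicate block, 80 and 107 with neither trend nor robust moderation, 627 and 636 with DESeq2, 1620 and 1425 with libraries numbered 2 and 3 only, and 1211 and 1112 with the replicate block within each stimulus. Leaving out 1 library gave 42 to 322 higher and 62 to 363 lower. Against 1699 genotype calls in IFNg/LPS there were 3953 with numbers 2 and 3 only, 3849 with the block within each stimulus, and 876 to 2030 leaving out 1 library. Against 418 in IL-4 there were 880 with DESeq2, 2211 with numbers 2 and 3 only, 1334 with the block within each stimulus, and 178 to 584 leaving out 1 library. Against 12 genes of opposite effect there were 22 with all 18 libraries, 27 with the replicate block, 49 with DESeq2, 420 with numbers 2 and 3 only, 159 with the block within each stimulus, and 4 to 42 leaving out 1 library. Every one of these kept at least 3 of the 12. Across stimuli the numbers pair the libraries weakly, with r of -0.012 to 0.198 for the same number. Between the WT groups r was 0.119 to 0.198 for the same number and -0.154 to 0.060 for other numbers. Between the p110g-/- groups it was -0.012 to 0.028 for the same number and -0.030 to 0.043 for other numbers.

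The 41 named genes that were called kept their direction in all 902 values, of which 94 no longer passed. Of the 440 values of the 20 genes not called, 24 passed and 17 turned sign. Cd274 was 0.14 under quantile normalisation and Mmp13 was -0.04 with numbers 2 and 3 only. Leaving out 1 library gave differences of -1.24 to 0.24 for Il10, -1.15 to 0.01 for Nos2, -0.66 to 0.39 for Ccl17, -0.07 to 0.42 for Ciita, -0.56 to 0.07 for Cd274, -0.01 to 0.28 for Tgfb1, -0.19 to 0.30 for Mmp13 and -0.33 to 0.02 for Pf4.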

Other observations

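Of the 15 genes called in the difference that moved the same way under both stimuli, 5 rose and 10 fell, and 8 had the larger effect in IFNg/LPS. The genes named here were chosen after their values were seen. Csf2ra, which encodes a chain of the receptor for granulocyte-macrophage colony-stimulating factor, fell by 1.08 in IFNg/LPS and by 2.18 in IL-4, with a difference of 1.10 (adjusted p 0.011). Cyp4f18, a fatty acid hydroxylase, fell by 3.02 in IFNg/LPS and by 5.37 in IL-4, with a difference of 2.36 (adjusted p 0.010). H60a, a ligand gene of the NKG2D receptor family, rose by 4.28 in IFNg/LPS and by 5.52 in IL-4, with a difference of -1.24 (adjusted p 0.0034), and its counts may be shared with near-identical copies. Chd9, a chromatin remodelling gene, rose by 1.07 in IFNg/LPS and by 0.36 in IL-4, with a difference of 0.71 (adjusted p 0.0061).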
